A study of Sus scrofa with 18 samples.

Results

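Solute carriers are the membrane proteins of the SLC families, and 115 of their genes were read here in pig kidneys after transplantation, with and without carbon monoxide (CO). They were taken as the probe sets whose only gene symbol has the SLC family form, with SLC22A6, SLC17A1, SLC5A1, SLC2A3 and SLC16A3 left out, and each gene was read from the probe set that was brightest on average over the 18 arrays. The 115 genes stand among 6765 named genes and 23999 probe sets, and hold 171 probe sets themselves. Of the 115, 112 encode carriers or their subunits, and 3 bear a carrier's name without being one: SLC2A4RG, SLC9A3R1 and SLC9A3R2. By substrate there were 17 amino acid carriers, 6 organic ion carriers, 13 sugar carriers, 1 phosphate carrier and 21 carriers of the mitochondrial SLC25 family. The others were 13 metal carriers, 12 inorganic ion carriers, 12 carriers of vitamins, lipids or choline, 13 of nucleosides or nucleotide sugars, 2 of peptides and 2 of neurotransmitters or osmolytes. Most families were kept whole, so SLC25A17, a peroxisomal carrier, is counted with the mitochondrial ones, while the SLC5 and SLC6 families were split by substrate.

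Carriers move solutes across a membrane by exchange, by uniport or by coupling to the sodium, proton or membrane potential gradient. In the kidney the proximal tubule relies on them: apical carriers take glucose, amino acids, peptides, phosphate and vitamins back from the filtrate, and basolateral carriers return them to the blood or bring organic anions and cations in for secretion. The SLC25 family sits mostly in the inner mitochondrial membrane and links the cytosol with respiration.

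The study hybridised total RNA from 18 pig kidneys to Affymetrix porcine arrays, 1 array a kidney. The groups were 4 transplanted kidneys treated with CO and taken at 24 h, 4 transplanted untreated kidneys at 24 h, 4 transplanted CO-treated kidneys at 4 h, 4 transplanted untreated kidneys at 4 h, and 2 naive kidneys that were not transplanted. All 16 transplanted kidneys shared the surgery, and donor numbers 5 to 8 at 24 h and 1 to 4 at 4 h each stand on 1 CO-treated and 1 untreated kidney. The treatment field of the CO-treated kidneys reads air while their titles and sources say CO. Titles and sources were followed here. Whether the donor, the graft or the recipient received the gas, and the breed, age and sex of the pigs, are not given in the sources used here. Beyond the donor number nothing says that kidneys came from separate animals, and a number in the naive arrays' file names recurs in those of donor 4, so p-values measure the spread between these arrays.

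Values are log2 RMA levels, on which 1 unit is a doubling of signal; they are compared between groups for 1 gene and never between genes. Array medians lay between 3.75 and 3.94. A changed gene is one with an adjusted p under 0.05 in limma, adjusted over all 23999 probe sets; changes are given as log2 differences ± the standard error of the fit. The untreated 4 h kidney of donor 1 stood apart, with a correlation of 0.982 with the naive mean against 0.956 with the rest of its own group, and the untreated 24 h kidney of donor 8 had the narrowest spread of levels (SD 2.21). Dates in the array file names made 4 sets. Naive 1 and all kidneys of donors 1, 3 and 4 were in set 1. Set 2 held naive 2, the CO-treated and untreated kidneys of donor 2, and donor 5 untreated. Set 3 held donors 6 to 8 untreated and donors 5, 7 and 8 with CO, and set 4 donor 6 with CO. Time and date set thus nearly coincide, and only the untreated kidney of donor 5 joins 24 h to naive within a set. The tag control probe sets put the background at a log2 level of 1.607; 10 of the 115 genes lay below it on average (SLC10A1, SLC1A2, SLC1A3, SLC1A6, SLC25A51, SLC26A3, SLC28A3, SLC36A2, SLC5A5 and SLC6A14) and 105 above.

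At 24 h the carriers that changed were mostly lower than in naive kidneys. In CO 24 h kidneys 21 of 115 genes changed, 3 higher and 18 lower (18.3%), against 11.7% of all probe sets and 18.8% of named genes. In untreated 24 h kidneys 34 changed, 6 higher and 28 lower (29.6%), against 14.6% of all probe sets and 22.9% of named genes. In CO 24 h kidneys 5.75% of all probe sets and 10.5% of named genes were higher, and 5.93% and 8.29% lower. In untreated 24 h kidneys 6.79% of all probe sets and 12.2% of named genes were higher, and 7.77% and 10.7% lower. The share of carriers that changed in CO 24 h kidneys is thus near that of named genes, with more of it on the lower side. The median change over the 115 was -0.217 in CO 24 h and -0.188 in untreated 24 h kidneys, while that over all probe sets was -0.0173 and 0.00755.

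At 4 h fewer carriers changed. In CO 4 h kidneys 18 genes changed, 5 higher and 13 lower (15.7%), near the 13.6% of all probe sets and below the 20.5% of named genes. There 6.84% of all probe sets and 9.80% of named genes were higher, and 6.72% and 10.7% lower. In untreated 4 h kidneys 2 rose and none fell (1.74%), against 1.50% of all probe sets and 2.25% of named genes. On the higher side these were 0.942% and 1.52%, on the lower 0.563% and 0.724%. Of the 115, 24 had an unadjusted p under 0.05, as did 20.7% of all probe sets. Without the untreated kidney of donor 1, that comparison had 14 changed carriers, 6 higher and 8 lower, and 13.9% of all probe sets changed. Of these 14, 9 were among the 18 of the CO 4 h kidneys, all 9 in the same direction; both comparisons share the naive kidneys. The count in untreated 4 h kidneys thus depends on that 1 array.

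**Figure D1:**
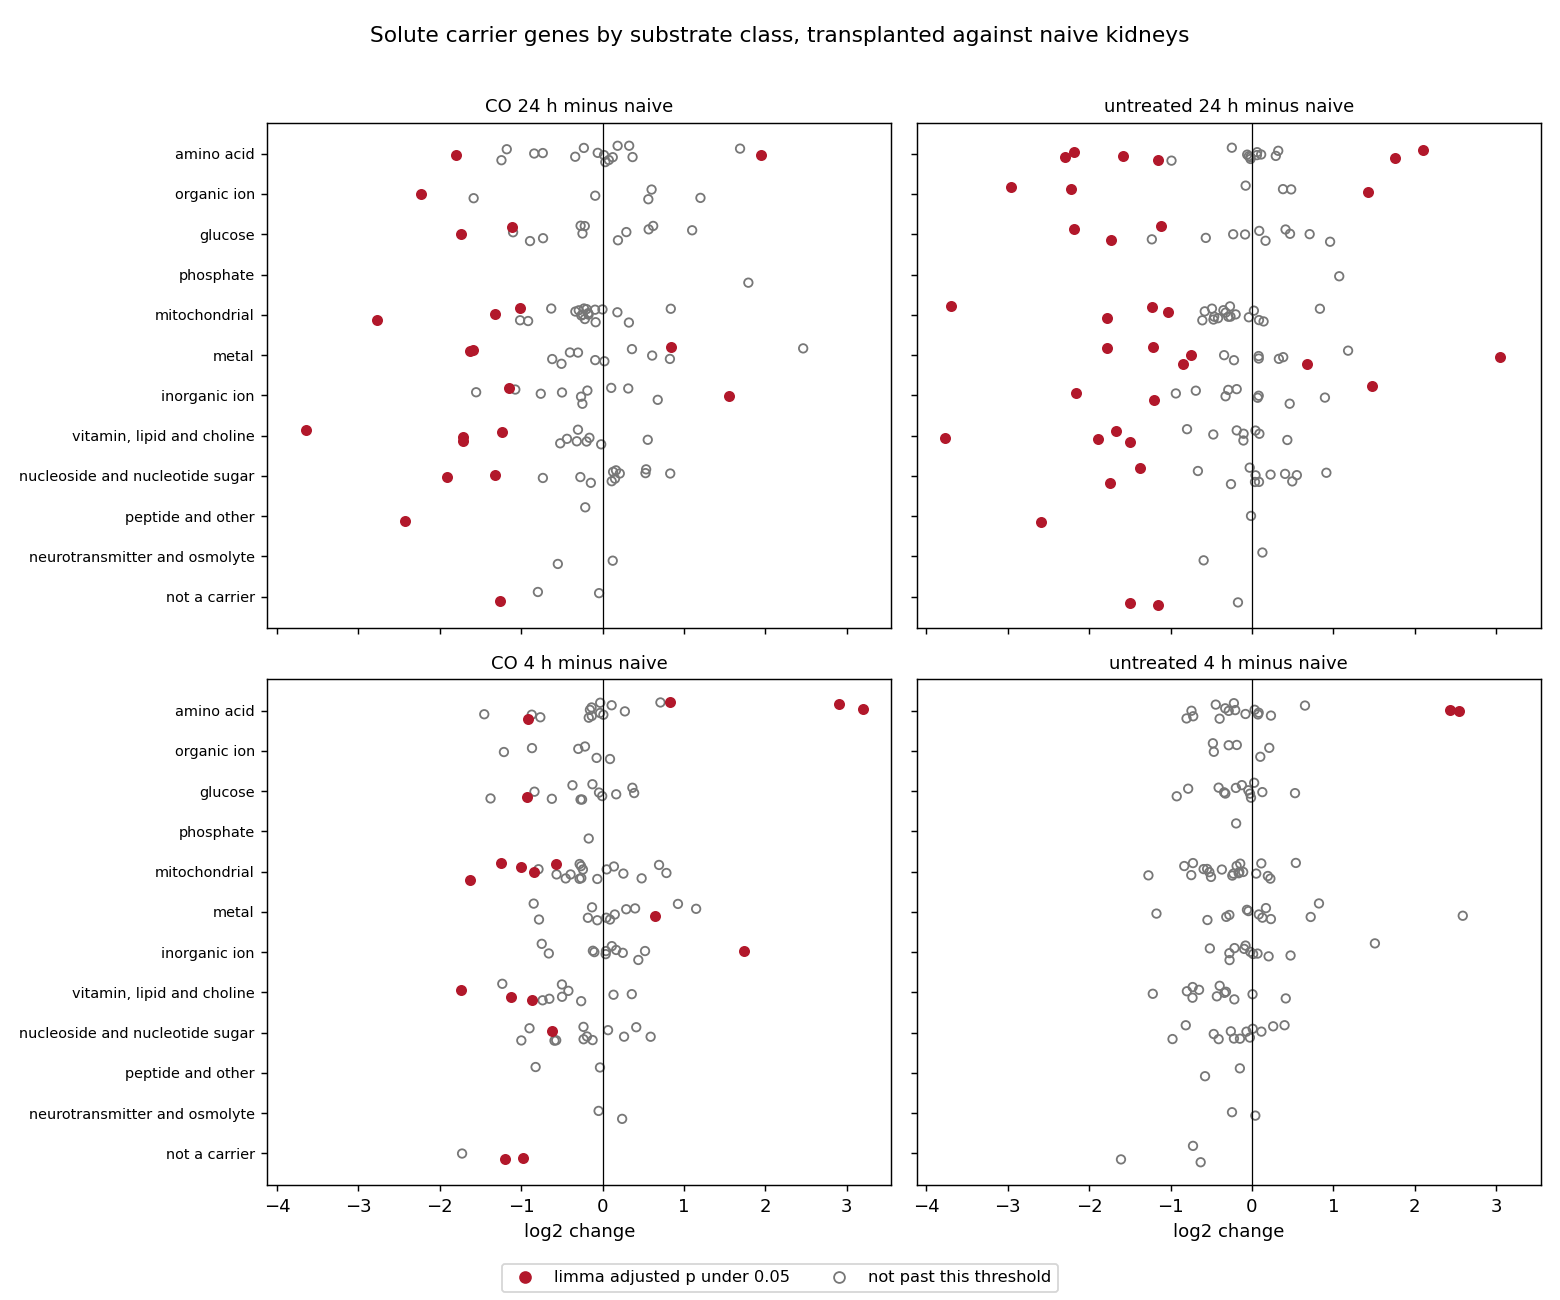
Log2 change against naive kidneys (horizontal axis) of each of the 115 genes, by substrate class (rows), in CO 24 h, untreated 24 h, CO 4 h and untreated 4 h kidneys; filled points passed limma's adjusted p of 0.05. In both 24 h panels the filled points lie mostly left of 0, 18 of 21 with CO and 28 of 34 untreated, and in the untreated 4 h panel only 2 amino acid carriers are filled.

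Taken over all comparisons with naive, 42 of the 115 genes changed at least once. At 24 h, 18 fell in both the CO-treated and the untreated kidneys and 3 rose in both, namely SLC38A1, SLC12A4 and SLC39A7. A further 10 fell in untreated 24 h kidneys and did not pass in CO 24 h kidneys, and none fell only with CO; the difference between CO and untreated passed for none of them. Of the 18 that changed in CO 4 h kidneys, 10 had also changed in a 24 h group and 8 in neither: SLC1A4, SLC25A11, SLC25A38, SLC2A12, SLC35B2, SLC38A9, SLC41A1 and SLC44A2. For SLC25A38 this depends on the probe set. Its second one fell in both 24 h groups (-0.73, adjusted p = 0.014 with CO and -0.59, adjusted p = 0.0323 untreated). For these counts, from the 42 genes on, no share over all probe sets was taken. All the comparisons share the naive kidneys, so the counts describe the 115 genes only. The map of the 42 genes shows these patterns array by array.

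**Figure D2:**
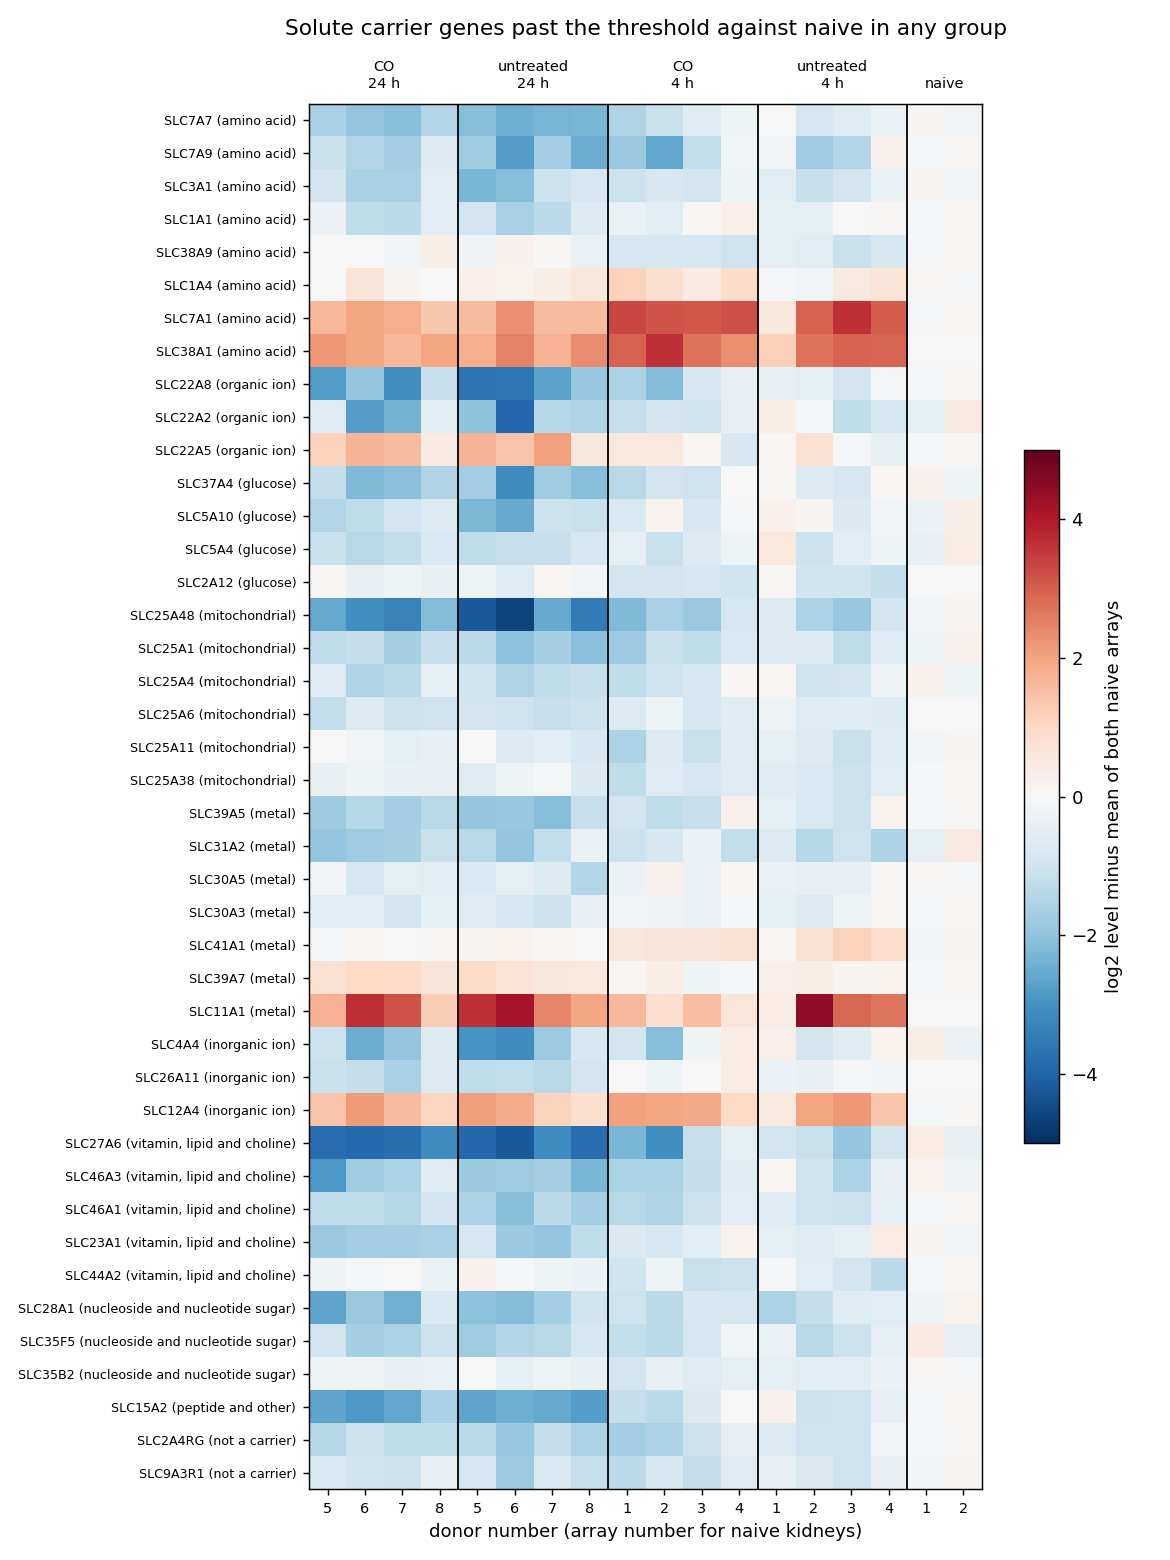
Log2 level of each array minus the mean of both naive arrays (colour scale) for the 42 genes that passed the threshold against naive in any group, in rows by class, with arrays in columns by group and donor. SLC7A1, SLC38A1 and SLC11A1 are among the strongest reds and SLC25A48, SLC27A6 and SLC22A8 among the strongest blues; the untreated 4 h column of donor 1 is close to white in most rows.

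Amino acid carriers moved both ways. In untreated 24 h kidneys 2 of 17 rose and 4 fell, in CO 24 h kidneys 1 rose and 1 fell, in CO 4 h kidneys 3 rose and 1 fell, and in untreated 4 h kidneys 2 rose. The 2 large rises were SLC7A1 and SLC38A1. SLC7A1 encodes CAT-1, the importer of arginine and lysine. Its level was 6.50, 6.78, 6.63 and 6.16 in CO 24 h kidneys and 6.42, 7.12, 6.40 and 6.40 in untreated 24 h kidneys. SLC7A1 at 4 h was 8.15, 7.96, 7.94 and 8.05 in CO-treated and 5.38, 7.78, 8.46 and 7.87 in untreated kidneys, against 4.73 and 4.92 in naive kidneys. Every transplanted kidney lay above both naive ones, and the lowest was the untreated 4 h kidney of donor 1. The change from naive was 3.20 ± 0.54, adjusted p = 0.00473 in CO 4 h kidneys and 2.54 ± 0.54, adjusted p = 0.0359 in untreated 4 h kidneys. By 24 h it was 1.69 ± 0.54, adjusted p = 0.0533 with CO, which missed the threshold, and 1.76 ± 0.54, adjusted p = 0.039 untreated. The CO-treated kidneys were lower at 24 h than at 4 h (-1.51 ± 0.44, adjusted p = 0.0272), with no overlap of their levels; in untreated kidneys this difference was -0.78 ± 0.44, adjusted p = 0.317.

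SLC38A1 encodes SNAT1, a sodium-coupled importer of glutamine and other neutral amino acids. It stood at 5.11, 4.89, 4.60 and 4.89 in CO 24 h and 4.76, 5.39, 4.67 and 5.27 in untreated 24 h kidneys. SLC38A1 at 4 h was 5.88, 6.57, 5.64 and 5.24 in CO-treated and 4.10, 5.64, 5.86 and 5.85 in untreated kidneys, while the naive kidneys read 2.94 and 2.91. All 16 transplanted kidneys were above the naive pair, again with the untreated 4 h kidney of donor 1 lowest. It was the 1 carrier that rose in all 4 comparisons with naive. The rise was 1.95 ± 0.42, adjusted p = 0.00764 in CO 24 h kidneys and 2.10 ± 0.42, adjusted p = 0.00378 in untreated 24 h kidneys. It was 2.91 ± 0.42, adjusted p = 0.00267 in CO 4 h kidneys and 2.44 ± 0.42, adjusted p = 0.021 in untreated 4 h kidneys. Without the untreated 4 h kidney of donor 1 the untreated 4 h change was 2.86 ± 0.30, adjusted p = 3.77e-05 for SLC38A1 and 3.21 ± 0.25, adjusted p = 2.29e-06 for SLC7A1. Over the fits that left out 1 array each, the adjusted p in untreated 4 h kidneys spanned 3.77e-05 to 0.185 for SLC38A1 and 2.29e-06 to 0.243 for SLC7A1, the highest without naive 2, so 1 naive array ends either call.

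SLC1A4 and SLC1A5, the neutral amino acid exchangers ASCT1 and ASCT2, had smaller changes. SLC1A4 rose in CO 4 h kidneys, whose levels were 4.32, 3.99, 3.61 and 4.11, against 3.26 and 3.11 in naive kidneys (0.82 ± 0.25, adjusted p = 0.0371); its leave-one-out adjusted p spanned 0.0308 to 0.232, highest without naive 1. In untreated 4 h kidneys it was 3.11, 3.05, 3.69 and 3.82 (0.23 ± 0.25, adjusted p = 0.661), which overlapped naive. SLC1A5 read 8.89, 8.18, 8.51 and 8.54 in CO 4 h and 7.97, 8.55, 8.77 and 8.59 in untreated 4 h kidneys, against 7.73 and 7.91 in naive kidneys. Both 4 h groups lay above naive, but neither difference passed (0.71 ± 0.25, adjusted p = 0.0672 with CO and 0.65 ± 0.25, adjusted p = 0.148 untreated).

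SLC7A9 and SLC3A1 were on the lower side at 24 h. They encode the light and heavy subunits of the apical cystine and dibasic amino acid exchanger that is mutated in human cystinuria. SLC7A9 was 6.32, 5.97, 5.67 and 6.73 in CO 24 h kidneys and 5.62, 4.65, 5.72 and 4.94 in untreated 24 h kidneys, against 7.35 and 7.48 in naive kidneys. Both 24 h groups lay below naive, and the untreated one fell (-2.18 ± 0.60, adjusted p = 0.0214) while the change with CO did not pass (-1.24 ± 0.60, adjusted p = 0.201). SLC3A1 followed at 7.62, 6.94, 6.96 and 8.03 in CO 24 h and 6.28, 6.43, 7.50 and 7.73 in untreated 24 h kidneys, against 8.70 and 8.43 in naive kidneys. It fell in the untreated kidneys (-1.58 ± 0.41, adjusted p = 0.0156), and the change with CO was -1.18 ± 0.41, adjusted p = 0.0709. At 4 h both genes spread widely, SLC7A9 at 4.81 to 7.28 with CO and 5.64 to 7.61 untreated, and neither passed.

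SLC7A7, y+LAT1, pairs with SLC3A2, the 4F2 heavy chain, to export dibasic amino acids across the basolateral membrane, and is mutated in human lysinuric protein intolerance. SLC7A7 levels were 5.47, 5.11, 4.95 and 5.61 in CO 24 h and 4.94, 4.65, 4.75 and 4.79 in untreated 24 h kidneys. SLC7A7 at 4 h read 5.56, 5.98, 6.44 and 6.86 in CO-treated and 7.10, 6.25, 6.43 and 6.75 in untreated kidneys, against 7.20 and 6.96 in naive kidneys. Every 24 h kidney was below naive. Every CO 24 h kidney was above every untreated 24 h kidney, though narrowly, the nearest being 4.95 with CO in donor 7 and 4.94 untreated in donor 5. It fell by 24 h in both arms, -1.80 ± 0.30, adjusted p = 0.00196 with CO and -2.30 ± 0.30, adjusted p = 0.000242 untreated, and also against 4 h (-0.93 ± 0.24, adjusted p = 0.0154 with CO and -1.85 ± 0.24, adjusted p = 0.000397 untreated). Both falls against naive passed in every fit that left out 1 array, with adjusted p of 0.0018 to 0.0444 and 0.000643 to 0.00986; the fall between the CO-treated times missed it without the CO kidneys of donor 4 or 7 (highest 0.054). SLC3A2 did not pass in any group; its levels ran 5.35 to 6.80 in CO 24 h, 4.75 to 6.23 in untreated 24 h, 6.29 to 7.50 in CO 4 h and 6.20 to 7.51 in untreated 4 h kidneys, against 7.14 and 6.48 in naive kidneys.

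SLC1A1, the glutamate and aspartate importer EAAT3, read 7.07, 6.11, 6.05 and 6.85 in CO 24 h and 6.38, 5.74, 6.06 and 6.66 in untreated 24 h kidneys, against 7.26 and 7.46 in naive kidneys. All 8 lay below naive, and the untreated group fell (-1.15 ± 0.31, adjusted p = 0.0202) while the change with CO was -0.84 ± 0.31, adjusted p = 0.0914. SLC38A9, the lysosomal arginine sensor, had another course: it was 4.97, 4.96, 5.00 and 4.84 in CO 4 h and 5.37, 5.35, 4.75 and 5.07 in untreated 4 h kidneys, against 5.76 and 5.95 in naive kidneys. It fell in CO 4 h kidneys (-0.91 ± 0.19, adjusted p = 0.00842) and came near the threshold in untreated ones (-0.72 ± 0.19, adjusted p = 0.0585). At 24 h its levels of 5.74 to 6.14 with CO and 5.52 to 6.06 untreated overlapped naive again, and both arms were higher than at 4 h (0.95 ± 0.15, adjusted p = 0.000939 with CO and 0.66 ± 0.15, adjusted p = 0.0118 untreated). The untreated call between times ended with the compared groups only and with the mean of the gene's probe sets. Against naive at 4 h, the second SLC38A9 probe set (mean level 2.74 against 5.49) passed in neither arm. It gave -0.29, adjusted p = 0.567 with CO and -0.077, adjusted p = 0.922 untreated.

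Among the 6 organic ion carriers, 1 fell in CO 24 h kidneys, 2 fell and 1 rose in untreated 24 h kidneys, and none passed at 4 h. SLC22A8, or OAT3, brings organic anions and many drugs into the proximal tubule from the blood. It read 6.60, 7.43, 6.33 and 8.22 in CO 24 h and 5.74, 5.76, 6.69 and 7.48 in untreated 24 h kidneys. SLC22A8 at 4 h was 7.85, 7.22, 8.57 and 9.01 in CO-treated and 8.99, 8.91, 8.40 and 9.32 in untreated kidneys, against 9.29 and 9.45 in naive kidneys. No 24 h kidney reached the naive levels, and it fell both with CO (-2.23 ± 0.56, adjusted p = 0.0167) and untreated (-2.96 ± 0.56, adjusted p = 0.00266). With either naive array left out the CO call was lost (leave-one-out adjusted p 0.0063 to 0.123), while the untreated one held (0.00145 to 0.0394). Untreated kidneys were also lower at 24 h than at 4 h (-2.49 ± 0.46, adjusted p = 0.00273); with CO that difference was -1.02 ± 0.46, adjusted p = 0.137.

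SLC22A2, or OCT2, the basolateral importer of organic cations, was 8.38, 6.27, 6.66 and 8.50 in CO 24 h and 7.02, 5.07, 7.62 and 7.52 in untreated 24 h kidneys, against 8.57 and 9.50 in naive kidneys. The CO-treated kidneys fell into a higher and a lower pair, and the untreated kidney of donor 6 was the lowest of all. The untreated group fell (-2.23 ± 0.70, adjusted p = 0.0425), but its adjusted p reached 0.298 without naive 2, with a range of 0.0332 to 0.298 over these fits; the change with CO was -1.58 ± 0.70, adjusted p = 0.162. SLC22A5, the carnitine importer OCTN2, went the other way, at 5.21, 5.76, 5.65 and 4.46 in CO 24 h and 5.76, 5.49, 6.11 and 4.62 in untreated 24 h kidneys, against 3.98 and 4.15 in naive kidneys. All 8 were above naive and the untreated group rose (1.43 ± 0.44, adjusted p = 0.0406), while CO gave 1.20 ± 0.44, adjusted p = 0.0914. Compared with 4 h, where its levels overlapped naive, SLC22A5 was higher at 24 h in both arms (1.11 ± 0.36, adjusted p = 0.0438 with CO and 1.33 ± 0.36, adjusted p = 0.0287 untreated). SLC16A13, of the monocarboxylate carrier family, was higher at 24 h than at 4 h with CO (0.78 ± 0.23, adjusted p = 0.0305). SLC22A3, the organic cation carrier OCT3, and SLC10A1, the bile acid importer NTCP, passed in no comparison, and SLC10A1 was below background in each transplanted group.

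**Figure D3:**
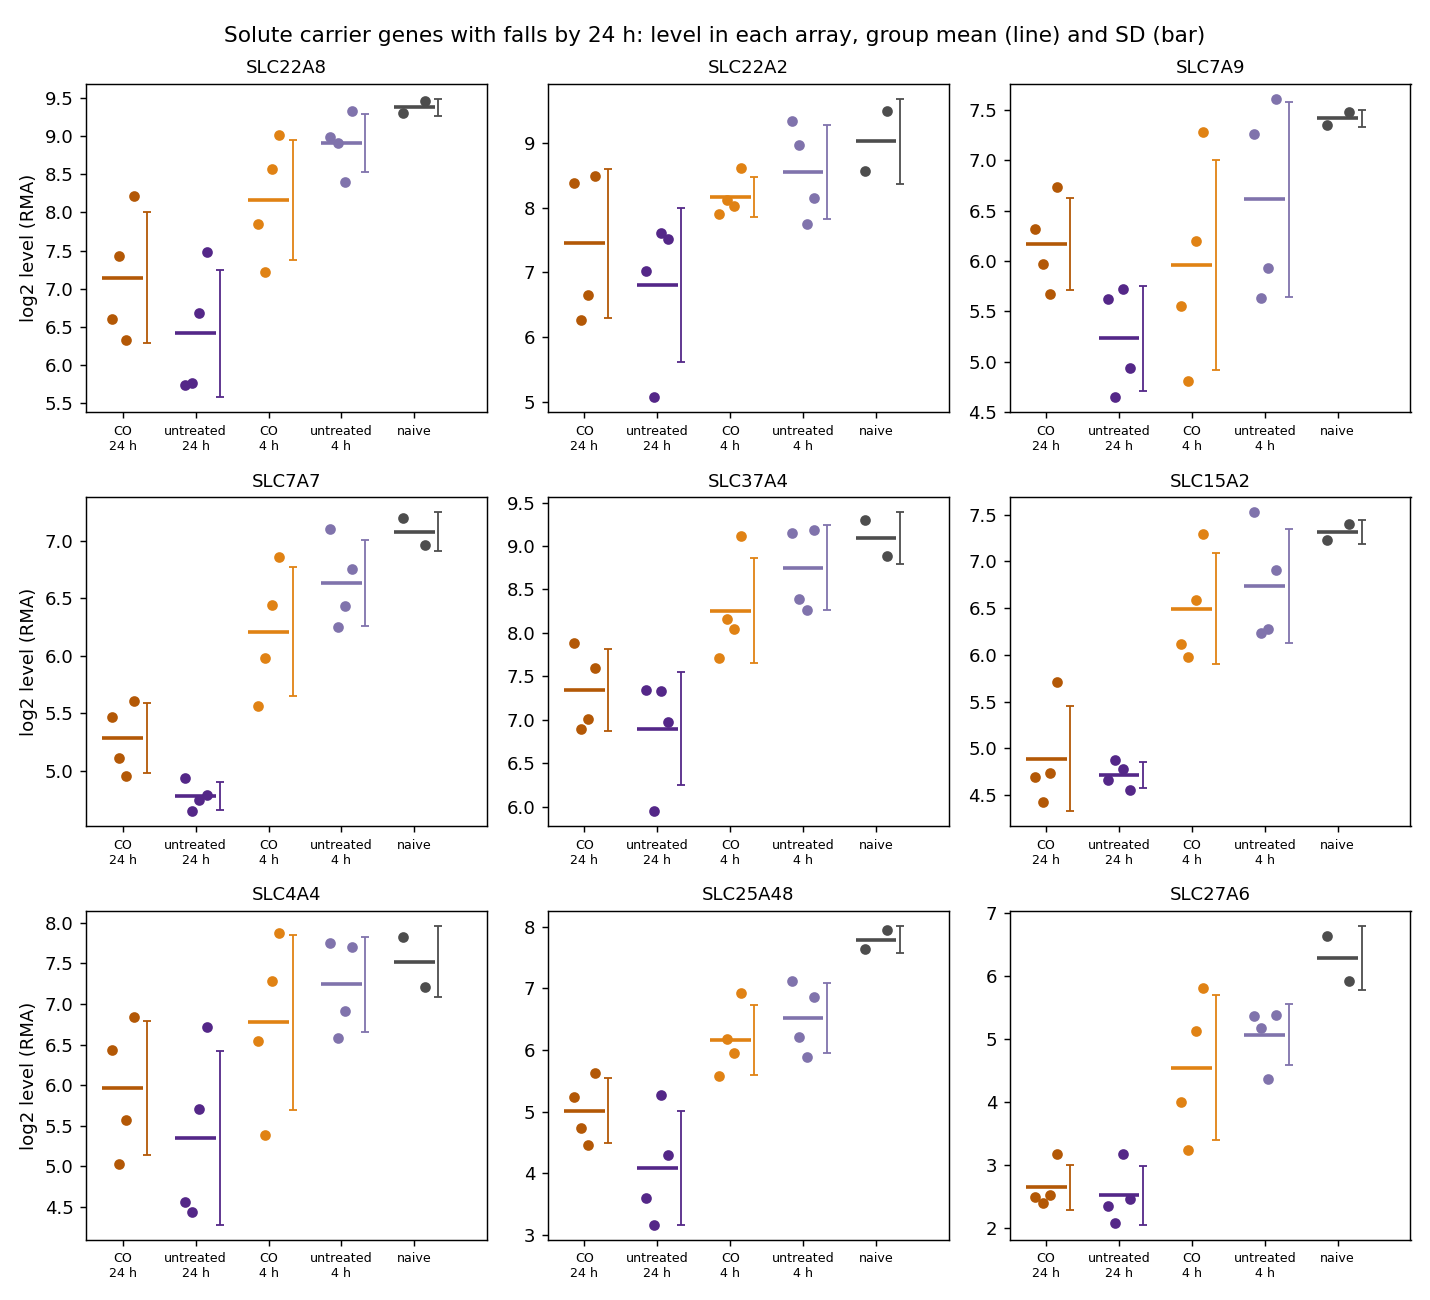
Log2 RMA level (vertical axis, own scale per panel) of 9 carriers in each array, with CO 24 h, untreated 24 h, CO 4 h, untreated 4 h and naive kidneys side by side; lines are group means and bars 1 SD. The 24 h points lie below both naive points for all 9 genes, and for SLC15A2 and SLC27A6 they also lie below every 4 h point.

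Of the 13 sugar carriers, 2 fell in CO 24 h and 3 in untreated 24 h kidneys, and 1 fell in CO 4 h kidneys. The largest change was in SLC37A4, which moves glucose 6-phosphate into the endoplasmic reticulum, a step that glucose release by the kidney needs. SLC37A4 stood at 7.88, 6.89, 7.02 and 7.60 in CO 24 h and 7.34, 5.95, 7.33 and 6.98 in untreated 24 h kidneys. SLC37A4 at 4 h was 7.71 to 9.11 in CO-treated and 8.26 to 9.19 in untreated kidneys, against 9.30 and 8.88 in naive kidneys. The 24 h kidneys all lay below naive while the 4 h ones overlapped it. The gene fell with CO (-1.74 ± 0.43, adjusted p = 0.0159) and untreated (-2.19 ± 0.43, adjusted p = 0.00347), and untreated kidneys were lower than at 4 h (-1.85 ± 0.35, adjusted p = 0.00357). SLC5A10, or SGLT5, a sodium-coupled mannose and fructose carrier of the kidney, was 5.95 to 6.70 in CO 24 h and 4.89 to 6.32 in untreated 24 h kidneys, against 7.12 and 7.69 in naive kidneys. It fell in the untreated (-1.73 ± 0.41, adjusted p = 0.00984); CO gave -1.10 ± 0.41, adjusted p = 0.0936. SLC5A4, or SGLT3, fell by nearly the same amount in both, -1.12 ± 0.34, adjusted p = 0.0454 with CO and -1.11 ± 0.34, adjusted p = 0.0398 untreated, and both calls ended with either naive array left out (leave-one-out adjusted p 0.036 to 0.399 with CO and 0.037 to 0.377 untreated).

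None of the facilitative sugar carriers of the SLC2 family kept here, from which SLC2A3 was left out, passed the threshold against naive at 24 h. SLC2A1, the widespread carrier GLUT1, read 6.47, 6.70, 6.34 and 6.94 in CO 24 h and 6.67, 6.55, 6.46 and 8.21 in untreated 24 h kidneys, against 6.99 and 6.78 in naive kidneys, with the untreated kidney of donor 8 alone well above naive. SLC2A2, the basolateral carrier GLUT2, was 5.63, 4.43, 4.55 and 5.11 in CO 24 h and 4.95, 3.89, 4.55 and 5.75 in untreated 24 h kidneys, against 3.90 and 3.76 in naive kidneys. The CO group lay wholly above naive, yet neither change passed (1.10 ± 0.53, adjusted p = 0.198 with CO and 0.96 ± 0.53, adjusted p = 0.255 untreated). SLC2A5, the fructose carrier GLUT5, lay below naive in every transplanted kidney without passing. Its change was -0.73 ± 0.49, adjusted p = 0.393 in CO 24 h, -1.23 ± 0.49, adjusted p = 0.109 in untreated 24 h and -1.38 ± 0.49, adjusted p = 0.074 in CO 4 h kidneys. SLC2A12, or GLUT12, was 1.72, 1.68, 1.82 and 1.64 in CO 4 h kidneys, against 2.62 and 2.66 in naive kidneys, and fell (-0.93 ± 0.27, adjusted p = 0.0338). CO-treated kidneys were higher again at 24 h (0.71 ± 0.22, adjusted p = 0.0362). Untreated 4 h kidneys gave -0.78 ± 0.27, adjusted p = 0.116 for SLC2A12, or -1.06 ± 0.19, adjusted p = 0.00191 without donor 1. SLC50A1, SWEET1, was higher at 24 h than at 4 h in both arms (0.84 ± 0.17, adjusted p = 0.00368 with CO and 0.88 ± 0.17, adjusted p = 0.00401 untreated), and SLC37A1, an endoplasmic reticulum sugar phosphate carrier, in the untreated arm (0.75 ± 0.23, adjusted p = 0.0482). The SLC37A1 call ended in 7 of 8 leave-one-out fits.

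Among the genes kept here, from which SLC17A1 was left out, the 1 placed in the phosphate class was SLC34A2. This carrier, NaPi-IIb, is better known from lung and intestine than from the proximal tubule. The mitochondrial phosphate carrier SLC25A3 is counted with the SLC25 family. SLC34A2 levels were 5.47, 3.14, 2.29 and 5.64 in CO 24 h and 3.49, 3.47, 2.03 and 4.68 in untreated 24 h kidneys. SLC34A2 at 4 h was 1.83 to 2.65 in CO-treated and 1.94 to 2.30 in untreated kidneys, against 2.40 and 2.29 in naive kidneys. The CO-treated kidneys of donors 5 and 8 and the untreated kidney of donor 8 were the highest, while both kidneys of donor 7 stood at or below the naive level. No change against naive passed (1.79 ± 0.76, adjusted p = 0.143 in CO 24 h and 1.07 ± 0.76, adjusted p = 0.404 in untreated 24 h kidneys). CO-treated kidneys were higher at 24 h than at 4 h (1.96 ± 0.62, adjusted p = 0.0382), a call that ended without any of 5 of the 8 arrays (leave-one-out adjusted p 0.00905 to 0.125, highest without the CO kidney of donor 5).

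**Figure D4:**
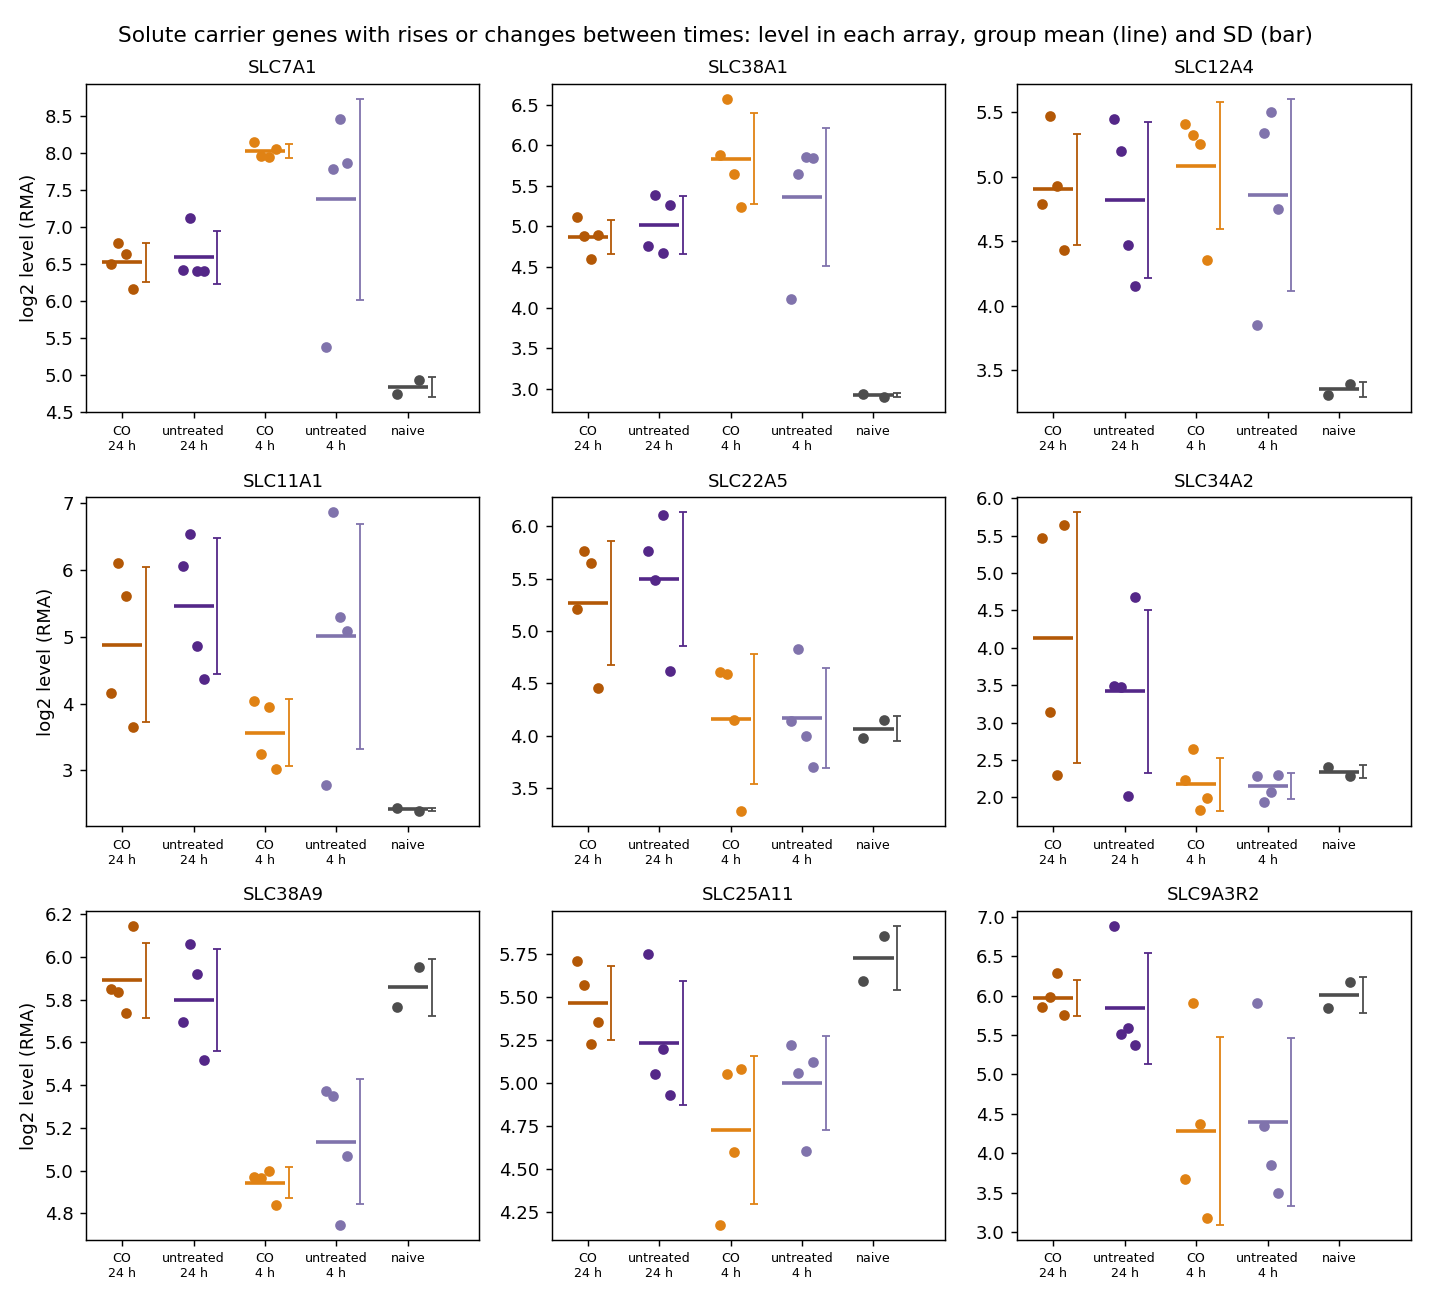
Log2 RMA level (vertical axis, own scale per panel) of 9 genes that rose or that differed between 24 h and 4 h, in each array of the CO 24 h, untreated 24 h, CO 4 h, untreated 4 h and naive groups; lines are group means and bars 1 SD. SLC7A1 and SLC38A1 are above naive in all 16 transplanted kidneys, and SLC38A9 is below naive at 4 h and level with it at 24 h.

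None of the 21 SLC25 genes rose against naive. In CO 24 h kidneys 3 fell, in untreated 24 h kidneys 4, and in CO 4 h kidneys 5. SLC25A48, an inner membrane carrier linked to mitochondrial choline import, changed most. It was 5.24, 4.73, 4.45 and 5.63 in CO 24 h and 3.60, 3.16, 5.27 and 4.30 in untreated 24 h kidneys. SLC25A48 at 4 h read 5.58, 6.18, 5.95 and 6.92 in CO-treated and 7.12, 6.20, 5.88 and 6.85 in untreated kidneys, against 7.63 and 7.94 in naive kidneys. All 16 transplanted kidneys lay below naive, the untreated 24 h kidneys of donors 5 and 6 lowest. It fell in CO 24 h (-2.77 ± 0.50, adjusted p = 0.00319), untreated 24 h (-3.70 ± 0.50, adjusted p = 0.000365) and CO 4 h kidneys (-1.63 ± 0.50, adjusted p = 0.0425), and untreated 4 h gave -1.27 ± 0.50, adjusted p = 0.163. Both 24 h calls held when any 1 array was left out (adjusted p 0.00255 to 0.046 with CO and 0.000329 to 0.0122 untreated); the CO 4 h call did not (0.0227 to 0.25, highest without naive 1). Within date set 2 the untreated kidney of donor 5 was -4.34 from naive 2, and SLC25A48 was the 1 carrier still called in untreated 24 h kidneys with date set as a fixed block (-4.15, adjusted p = 0.0405, over alternatives 2.48e-05 to 0.0405).

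SLC25A1, which exports citrate from mitochondria, was lower in the same 3 groups: -1.32 ± 0.28, adjusted p = 0.0071 in CO 24 h, -1.78 ± 0.28, adjusted p = 0.000942 in untreated 24 h and -1.24 ± 0.28, adjusted p = 0.0119 in CO 4 h kidneys. In untreated 4 h kidneys SLC25A1 changed by -0.83 ± 0.28, adjusted p = 0.109. Its naive levels of 8.64 and 9.08 were above all others, the highest of which was 8.20. The ADP/ATP carriers SLC25A4, SLC25A5 and SLC25A6 differed from one another. SLC25A6 was 10.30, 10.86, 10.48 and 10.50 in CO 24 h, 10.64, 10.51, 10.41 and 10.48 in untreated 24 h kidneys and 11.58 and 11.51 in naive kidneys. Every transplanted kidney was below naive, and it fell with CO (-1.01 ± 0.18, adjusted p = 0.00262) and untreated (-1.04 ± 0.18, adjusted p = 0.00143) at 24 h and with CO at 4 h (-0.58 ± 0.18, adjusted p = 0.0412). Untreated 4 h kidneys gave -0.55 ± 0.18, adjusted p = 0.0971 for SLC25A6. SLC25A4 fell in untreated 24 h kidneys (-1.23 ± 0.37, adjusted p = 0.0373), where it read 7.20, 6.68, 6.93 and 7.05 against 8.39 and 7.99 in naive kidneys, and CO 24 h gave -1.01 ± 0.37, adjusted p = 0.0914. SLC25A5 passed nowhere, with levels of 9.28 to 9.84 in CO 24 h and 9.22 to 9.54 in untreated 24 h kidneys, against 9.97 and 9.44 in naive kidneys. SLC25A3, the mitochondrial phosphate carrier, also passed nowhere, and all its 18 levels lay between 10.14 and 10.74.

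Other SLC25 genes changed between times. SLC25A11, the oxoglutarate and malate exchanger, was 4.18, 5.06, 4.60 and 5.08 in CO 4 h kidneys, against 5.59 and 5.86 in naive kidneys, and fell (-0.997 ± 0.27, adjusted p = 0.0241), with CO-treated kidneys higher again at 24 h (0.74 ± 0.22, adjusted p = 0.0284). Its change in untreated 4 h kidneys was -0.73 ± 0.27, adjusted p = 0.136. SLC25A38, a glycine carrier of heme synthesis, fell in CO 4 h kidneys (-0.85 ± 0.21, adjusted p = 0.0181), and untreated 4 h gave -0.75 ± 0.21, adjusted p = 0.0703. Its second probe set was also lower than naive in both 24 h groups. SLC25A17, the peroxisomal cofactor carrier, was lower at 24 h than at 4 h in both arms (-0.89 ± 0.17, adjusted p = 0.00252 with CO and -0.66 ± 0.17, adjusted p = 0.0205 untreated), as was the pyrimidine nucleotide carrier SLC25A36 (-1.40 ± 0.27, adjusted p = 0.00268 with CO and -1.12 ± 0.27, adjusted p = 0.0146 untreated). SLC25A21, an oxodicarboxylate carrier, was lower with CO (-0.91 ± 0.21, adjusted p = 0.00847). SLC25A20, which takes acylcarnitines in for fatty acid oxidation, and SLC25A37, the iron carrier mitoferrin 1, passed in no comparison.

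Metal carriers changed in 3 of 13 cases in CO 24 h kidneys (1 higher, 2 lower) and in 6 in untreated 24 h kidneys (2 higher, 4 lower), with 1 higher in CO 4 h kidneys. SLC11A1, NRAMP1, a divalent metal carrier of the macrophage phagosome, had the widest spread. It read 4.16, 6.10, 5.62 and 3.65 in CO 24 h and 6.06, 6.55, 4.87 and 4.37 in untreated 24 h kidneys. SLC11A1 at 4 h was 4.04, 3.25, 3.95 and 3.03 in CO-treated and 2.79, 6.86, 5.30 and 5.09 in untreated kidneys, against 2.44 and 2.40 in naive kidneys. All transplanted kidneys were above naive, and the untreated 4 h kidney of donor 2 was highest while that of donor 1 was lowest. It rose in untreated 24 h kidneys (3.05 ± 0.87, adjusted p = 0.0269) with a leave-one-out adjusted p of 0.0184 to 0.161, highest without naive 1. CO 24 h gave 2.47 ± 0.87, adjusted p = 0.0777. At 4 h the change was 1.15 ± 0.87, adjusted p = 0.435 with CO and 2.59 ± 0.87, adjusted p = 0.109 untreated. Without donor 1 the untreated 4 h change was 3.33 ± 0.73, adjusted p = 0.0069. The summed signal of 8 leukocyte markers ran 139 to 895 in CO 24 h, 197 to 1060 in untreated 24 h, 114 to 146 in CO 4 h and 214 to 505 in untreated 4 h kidneys, against 79.9 to 139 in naive kidneys, with S100A8 below background in CO 24 h and naive kidneys. Of the 8, 1 rose in CO 24 h and 4 in untreated 24 h kidneys. Their part in the SLC11A1 level was not tested. Fewer cells of a type and less RNA per cell cannot be told apart in these whole kidney samples, nor can more cells and more RNA.

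The zinc and copper carriers were mixed. SLC39A7, a ZIP carrier that releases zinc from the endoplasmic reticulum and Golgi, rose at 24 h with CO (0.84 ± 0.17, adjusted p = 0.00498) and untreated (0.67 ± 0.17, adjusted p = 0.0131), and every 24 h kidney lay above every naive and 4 h kidney of its arm. Its levels were 6.46, 6.72, 6.65 and 6.36 in CO 24 h and 6.63, 6.41, 6.25 and 6.22 in untreated 24 h kidneys, against 5.61 and 5.80 in naive kidneys. SLC39A5, a ZIP zinc importer, fell in both (-1.59 ± 0.38, adjusted p = 0.0136 with CO and -1.78 ± 0.38, adjusted p = 0.00565 untreated). SLC31A2, the copper carrier CTR2, was 5.69, 5.89, 6.00 and 6.54 in CO 24 h and 6.27, 5.73, 6.42 and 7.32 in untreated 24 h kidneys, against 7.22 and 8.09 in naive kidneys. It fell in both (-1.63 ± 0.38, adjusted p = 0.0123 with CO and -1.22 ± 0.38, adjusted p = 0.0425 untreated), but the naive kidneys themselves differed, the untreated kidney of donor 8 overlapped them, and without naive 2 the adjusted p values were 0.184 and 0.391. The zinc exporters SLC30A5 (-0.85 ± 0.26, adjusted p = 0.0353) and SLC30A3 (-0.75 ± 0.21, adjusted p = 0.0215) fell in untreated 24 h kidneys. The SLC30A5 call ended in 4 of 6 leave-one-out fits (adjusted p 0.0331 to 0.226). Its second probe set, of nearly the same mean level (4.82 against 4.84), gave -0.41, adjusted p = 0.304, and the mean of its probe sets -0.42, adjusted p = 0.126. Without the untreated 24 h kidney of donor 8 and the untreated 4 h kidney of donor 1, which stood apart, the SLC30A5 change was -0.64, adjusted p = 0.0572. SLC41A1, a magnesium carrier, rose in CO 4 h kidneys (0.64 ± 0.21, adjusted p = 0.0492), a call lost in each of the 6 fits that left out 1 array (adjusted p 0.0682 to 0.307). Its change in untreated 4 h kidneys was 0.72 ± 0.21, adjusted p = 0.0723, or 0.94 ± 0.14, adjusted p = 0.000624 without donor 1. The iron importer SLC11A2, DMT1, and the zinc and iron importer SLC39A14 passed in no comparison; SLC39A14 read 4.17 to 5.65 in CO 24 h and 5.14 to 5.71 in untreated 24 h kidneys, against 3.93 and 4.46 in naive kidneys.

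Of the 12 inorganic ion carriers, 1 rose and 1 fell in CO 24 h kidneys, 1 rose and 2 fell in untreated 24 h kidneys, and 1 rose in CO 4 h kidneys. SLC12A4, the potassium chloride cotransporter KCC1, which takes part in volume control, was 4.79, 5.47, 4.93 and 4.43 in CO 24 h and 5.45, 5.20, 4.47 and 4.16 in untreated 24 h kidneys. SLC12A4 at 4 h was 5.41, 5.33, 5.26 and 4.35 in CO-treated and 3.85, 5.34, 5.51 and 4.75 in untreated kidneys, against 3.31 and 3.39 in naive kidneys. All 16 transplanted kidneys lay above naive. It rose in CO 24 h (1.55 ± 0.44, adjusted p = 0.0311), untreated 24 h (1.47 ± 0.44, adjusted p = 0.035) and CO 4 h kidneys (1.74 ± 0.44, adjusted p = 0.0194). Untreated 4 h gave 1.51 ± 0.44, adjusted p = 0.0766, or 1.85 ± 0.40, adjusted p = 0.006 without donor 1. SLC26A11, a sulphate and chloride carrier, was 4.80, 4.72, 4.30 and 5.21 in CO 24 h and 4.64, 4.70, 4.54 and 4.97 in untreated 24 h kidneys, against 5.94 and 5.88 in naive kidneys. Every 24 h kidney was below every other kidney, and it fell against naive (-1.15 ± 0.21, adjusted p = 0.0032 with CO and -1.20 ± 0.21, adjusted p = 0.00168 untreated) and against 4 h (-1.20 ± 0.17, adjusted p = 0.000461 with CO and -0.98 ± 0.17, adjusted p = 0.00198 untreated).

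SLC4A4, or NBCe1, the basolateral bicarbonate exit of the proximal tubule, read 6.44, 5.03, 5.56 and 6.84 in CO 24 h and 4.55, 4.43, 5.71 and 6.71 in untreated 24 h kidneys, against 7.83 and 7.21 in naive kidneys. Both groups lay below naive; the untreated one fell (-2.17 ± 0.69, adjusted p = 0.0444), close to the threshold, and missed it with quantile normalization (adjusted p = 0.0501, over alternatives 0.000898 to 0.296), while CO gave -1.55 ± 0.69, adjusted p = 0.163. The untreated SLC4A4 call also ended in 5 of 6 leave-one-out fits and with the mean of its probe sets, the second of which lay below background. SLC9A3, the apical sodium proton exchanger NHE3, had low levels of 1.82 to 2.09 in CO 24 h and 2.29 to 2.77 in CO 4 h kidneys. It was lower at 24 h than at 4 h with CO (-0.54 ± 0.16, adjusted p = 0.032) and did not pass against naive. SLC8A1, the sodium calcium exchanger NCX1, was 1.72, 2.50, 2.51 and 2.18 in CO 24 h and 4.14, 2.15, 4.03 and 3.34 in CO 4 h kidneys, and lower at 24 h (-1.19 ± 0.38, adjusted p = 0.0414). That SLC8A1 call turned to 0.0377 with date set as a fixed block, and in naive kidneys the gene differed between arrays (3.87 and 2.73).

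The 12 carriers of vitamins, lipids and choline had 4 falls in each 24 h group and 3 in CO 4 h kidneys, and no rise. SLC27A6, FATP6, a fatty acid uptake protein, changed more than any other of the 115 genes at 24 h. SLC27A6 levels were 2.48, 2.39, 2.52 and 3.16 in CO 24 h and 2.35, 2.08, 3.17 and 2.46 in untreated 24 h kidneys. SLC27A6 at 4 h was 4.00, 3.23, 5.12 and 5.81 in CO-treated and 5.36, 5.17, 4.36 and 5.37 in untreated kidneys, against 6.64 and 5.92 in naive kidneys. The 24 h, 4 h and naive levels formed 3 ranges without overlap. It fell in CO 24 h (-3.64 ± 0.53, adjusted p = 0.000894), untreated 24 h (-3.77 ± 0.53, adjusted p = 0.000466) and CO 4 h kidneys (-1.74 ± 0.53, adjusted p = 0.0399), with untreated 4 h at -1.22 ± 0.53, adjusted p = 0.203. Both 24 h calls held in every leave-one-out fit (0.000975 to 0.0311 with CO and 0.000718 to 0.0169 untreated). Against 4 h it also fell in both arms (-1.90 ± 0.43, adjusted p = 0.00714 with CO and -2.55 ± 0.43, adjusted p = 0.00172 untreated).

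SLC46A1, the proton-coupled folate importer, fell in CO 24 h (-1.23 ± 0.27, adjusted p = 0.00805), untreated 24 h (-1.67 ± 0.27, adjusted p = 0.00101) and CO 4 h kidneys (-1.12 ± 0.27, adjusted p = 0.0147). Its change in untreated 4 h kidneys was -0.80 ± 0.27, adjusted p = 0.107. SLC46A3, a lysosomal carrier of the same family, fell at 24 h (-1.71 ± 0.49, adjusted p = 0.0324 with CO and -1.89 ± 0.49, adjusted p = 0.0165 untreated). SLC23A1, or SVCT1, which recovers vitamin C from the filtrate, was 2.70, 2.84, 2.83 and 2.90 in CO 24 h and 3.65, 2.67, 2.56 and 3.26 in untreated 24 h kidneys. SLC23A1 at 4 h was 3.64 to 4.73 in CO-treated and 3.89 to 4.89 in untreated kidneys, against 4.68 and 4.39 in naive kidneys. Every 24 h kidney was below naive and below the 4 h kidneys of its own arm, and the gene fell against naive (-1.72 ± 0.33, adjusted p = 0.00415 with CO and -1.50 ± 0.33, adjusted p = 0.00666 untreated) and against 4 h (-1.22 ± 0.27, adjusted p = 0.00586 with CO and -1.18 ± 0.27, adjusted p = 0.0109 untreated). Without naive 1 the falls against naive had adjusted p values of 0.0785 with CO and 0.0985 untreated. SLC44A2, a choline carrier, fell in CO 4 h kidneys (-0.86 ± 0.28, adjusted p = 0.0498), a call that ended with either naive array left out (leave-one-out adjusted p 0.0162 to 0.286). Its change in untreated 4 h kidneys was -0.73 ± 0.28, adjusted p = 0.148, or -0.93 ± 0.25, adjusted p = 0.0215 without donor 1. The related SLC44A4 passed nowhere.

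Among 13 carriers of nucleosides and nucleotide sugars, 2 fell in each 24 h group. SLC28A1, CNT1, the apical importer of pyrimidine nucleosides, was 3.23, 4.00, 3.47 and 5.10 in CO 24 h and 3.81, 3.68, 4.16 and 4.85 in untreated 24 h kidneys, against 5.68 and 6.04 in naive kidneys. All 8 were below naive, the CO-treated and untreated kidneys of donor 8 highest, and it fell in both (-1.92 ± 0.43, adjusted p = 0.00948 with CO and -1.74 ± 0.43, adjusted p = 0.0128 untreated). The second was SLC35F5 (-1.32 ± 0.38, adjusted p = 0.0306 with CO and -1.37 ± 0.38, adjusted p = 0.0215 untreated). SLC29A1, the equilibrative nucleoside carrier ENT1, was higher at 24 h than at 4 h in both arms (0.80 ± 0.25, adjusted p = 0.034 with CO and 0.81 ± 0.25, adjusted p = 0.048 untreated) and did not differ from naive beyond the threshold. The untreated SLC29A1 call ended in 6 of 8 leave-one-out fits, and the call with CO in 4 of 8. Quantile normalization ended both calls, and array weights the untreated one. SLC35B2, which supplies the Golgi with the sulphate donor PAPS, fell in CO 4 h kidneys (-0.62 ± 0.17, adjusted p = 0.0244), and untreated 4 h gave -0.47 ± 0.17, adjusted p = 0.122.

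SLC15A2, PEPT2, recovers small peptides from the filtrate late in the proximal tubule. It was 4.69, 4.43, 4.74 and 5.71 in CO 24 h and 4.66, 4.88, 4.77 and 4.56 in untreated 24 h kidneys. SLC15A2 at 4 h was 6.11, 5.98, 6.59 and 7.29 in CO-treated and 7.52, 6.24, 6.28 and 6.91 in untreated kidneys, against 7.23 and 7.41 in naive kidneys. Every 24 h kidney lay below every 4 h and naive kidney, and the 4 h groups overlapped naive. It fell at 24 h with CO (-2.42 ± 0.39, adjusted p = 0.00176) and untreated (-2.60 ± 0.39, adjusted p = 0.000737) and against 4 h in both arms (-1.60 ± 0.32, adjusted p = 0.00344 with CO and -2.02 ± 0.32, adjusted p = 0.00118 untreated). None of these calls was lost when 1 array was left out (highest adjusted p 0.0318, 0.0183, 0.0129 and 0.00515). SLC15A1, PEPT1, did not pass. Neither did SLC6A4, the serotonin carrier, or SLC6A8, the creatine carrier, for which the smallest adjusted p against naive was 0.165 in untreated 24 h kidneys.

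Of the 3 genes that are not carriers, SLC2A4RG, a transcription factor that binds the GLUT4 gene's enhancer, fell in CO 24 h (-1.26 ± 0.31, adjusted p = 0.0168), untreated 24 h (-1.50 ± 0.31, adjusted p = 0.00511) and CO 4 h kidneys (-1.19 ± 0.31, adjusted p = 0.0228). SLC9A3R1, the scaffold NHERF1 that holds carriers at the brush border, fell in untreated 24 h (-1.15 ± 0.29, adjusted p = 0.0144) and CO 4 h kidneys (-0.98 ± 0.29, adjusted p = 0.0362). In untreated 4 h kidneys SLC2A4RG changed by -0.72 ± 0.31, adjusted p = 0.201, and SLC9A3R1 by -0.63 ± 0.29, adjusted p = 0.229. SLC9A3R2, NHERF2, read 5.86, 5.98, 6.28 and 5.75 in CO 24 h and 6.88, 5.51, 5.59 and 5.38 in untreated 24 h kidneys. SLC9A3R2 at 4 h was 3.68, 5.91, 4.37 and 3.18 in CO-treated and 5.90, 4.35, 3.85 and 3.50 in untreated kidneys, against 5.85 and 6.17 in naive kidneys. The CO 4 h kidney of donor 2 and the untreated 4 h kidney of donor 1 stood with the naive and 24 h levels, and the other 6 lay below. CO-treated kidneys were higher at 24 h than at 4 h (1.68 ± 0.54, adjusted p = 0.0398), and without donor 1 the untreated 4 h kidneys were below naive (-2.11 ± 0.59, adjusted p = 0.0253).

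Between 24 h and 4 h, 25 of the 115 genes differed in CO-treated kidneys, 11 higher and 14 lower, where 17.6% of all probe sets and 26.4% of named genes did. Of all probe sets 10.2% were higher and 7.44% lower, and of named genes 17.9% and 8.51%. In untreated kidneys 23 differed, 5 higher and 18 lower, against 9.72% of all probe sets and 16.3% of named genes. Here 5.15% of all probe sets were higher and 4.57% lower, and of named genes 9.61% and 6.65%. The 5 that were higher in the untreated kidneys were SLC22A5, SLC29A1, SLC37A1, SLC38A9 and SLC50A1. In untreated kidneys 15 genes were lower at 24 h than both naive and 4 h kidneys, and in CO-treated kidneys 6 were: SLC15A2, SLC23A1, SLC25A6, SLC26A11, SLC27A6 and SLC7A7. No share over all probe sets was taken for these counts of 15 and 6. In fits that left out 1 array each, 10 of the 25 calls with CO and 11 of the 23 untreated passed every time. The SLC25A6 call between times ended in 6 of 8 leave-one-out fits with CO and in 8 of 8 untreated. No date set held both a CO 24 h and a CO 4 h array, and with date set as a fixed block no gene of the 115 passed in either comparison of times; time and date set cannot be told apart for the CO-treated kidneys.

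No carrier passed the threshold between CO-treated and untreated kidneys. In limma 0 of 115 passed at 24 h and 0 at 4 h, as did 0% of all probe sets, and 0 passed at either time with the donor as a block, with array weights or with any 1 array left out. At an unadjusted p under 0.05 there was 1 gene at 24 h (1.17% of all probe sets) and 2 at 4 h (3.28%). With the donor as a block there were 7 at 24 h (1.83% of all probe sets) and 4 at 4 h (4.61%). The 7 were SLC5A10, SLC7A9, SLC25A48, SLC46A1, SLC34A2 and SLC1A1, higher with CO, and SLC46A2, lower, with unadjusted p of 0.0151 to 0.0493 and an adjusted p of 1 each. The 4 were SLC1A4 and SLC25A21, higher with CO, and SLC2A4RG and SLC11A1, lower, with unadjusted p of 0.0271 to 0.0481 and an adjusted p of 0.98 each. The values that follow are from the fit without the block. At 24 h the 1 gene was SLC25A48, higher with CO in donors 5, 6 and 8 and lower in donor 7, by 1.64, 1.57, 1.33 and -0.82 in that order (0.93 ± 0.41, unadjusted p = 0.0382, adjusted p = 1). SLC7A7 was next, with CO-treated kidneys higher in all 4 donors, by 0.53, 0.46, 0.21 and 0.82 (0.50 ± 0.24, unadjusted p = 0.0541, adjusted p = 1). Next in line were SLC46A1 (0.44 ± 0.22, unadjusted p = 0.0623, adjusted p = 1) and SLC25A1 (0.46 ± 0.23, unadjusted p = 0.0623, adjusted p = 1). They were followed by SLC7A9 (0.94 ± 0.49, unadjusted p = 0.0707, adjusted p = 1), SLC5A10 (0.63 ± 0.33, unadjusted p = 0.0749, adjusted p = 1), SLC30A5 (0.34 ± 0.21, unadjusted p = 0.12, adjusted p = 1) and SLC22A8 (0.73 ± 0.46, unadjusted p = 0.13, adjusted p = 1). All 8 were on the higher side with CO, as were 68 of the 115 genes (59.1%), 48.7% of all probe sets and 54.4% of named genes. Like SLC7A7, SLC25A1 and SLC5A10 of the 8 were higher with CO in all 4 donors, and so were SLC11A2, SLC2A5 and SLC44A4 outside the 8. SLC25A36 and SLC46A2 were lower with CO in all 4. At 4 h SLC25A33, SLC26A11, SLC30A5, SLC5A5 and SLC6A4 were higher with CO in all 4 donors. SLC23A1, SLC25A11, SLC2A4RG, SLC37A4, SLC39A7, SLC46A1, SLC5A4 and SLC9A3R1 were lower in all 4 there. No share over all probe sets was taken for genes on 1 side in all 4 donors.

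At 4 h the 2 genes were SLC1A4, higher with CO in donors 1, 2 and 4 by 1.21, 0.94 and 0.29 and at -0.07 in donor 3 (0.59 ± 0.20, unadjusted p = 0.00944, adjusted p = 0.999), and SLC25A21 (0.50 ± 0.21, unadjusted p = 0.0326, adjusted p = 0.999). SLC11A1 had the largest difference, -1.44, with CO-treated kidneys lower in donors 2, 3 and 4 by -3.61, -1.35 and -2.06 and higher in donor 1 by 1.25 (-1.44 ± 0.71, unadjusted p = 0.0593, adjusted p = 0.999). The others of the 8 smallest p-values were SLC2A4RG (-0.47 ± 0.26, unadjusted p = 0.0866, adjusted p = 0.999), SLC25A1 (-0.41 ± 0.23, unadjusted p = 0.0901, adjusted p = 0.999), SLC7A7 (-0.42 ± 0.24, unadjusted p = 0.0989, adjusted p = 0.999), SLC7A4 (0.41 ± 0.24, unadjusted p = 0.113, adjusted p = 0.999) and SLC8A1 (0.63 ± 0.38, unadjusted p = 0.117, adjusted p = 0.999). The difference of the CO effect between 24 h and 4 h passed for 0 of the 115 genes in limma; 7 had an unadjusted p under 0.05, against 2.55% of all probe sets. With the donor as a block 14 had one, against 4.07% of all probe sets, the smallest adjusted p among the 115 being 0.959. Counted by donor, 62, 76, 57 and 58 of the 115 genes were higher with CO in donors 5 to 8, and 55, 65, 45 and 58 in donors 1 to 4. The shares of all probe sets were 53.2%, 48.4%, 49.6% and 50.1% in donors 5 to 8, and 52.7%, 55.4%, 48.1% and 47.2% in donors 1 to 4. A p that misses the threshold does not show that the arms are alike, and the standard errors here ran to 0.41 for SLC25A48 and 0.71 for SLC11A1.

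**Figure D5:**
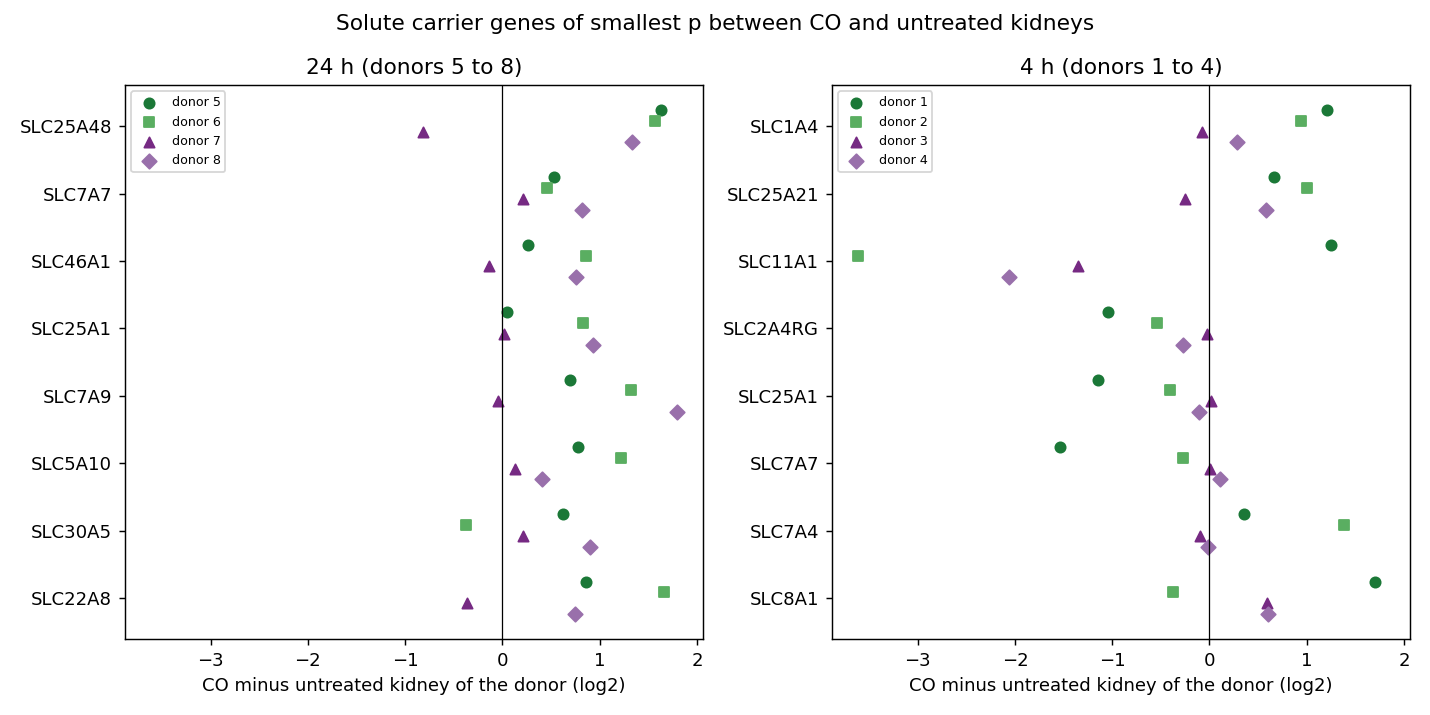
Log2 level of the CO-treated minus the untreated kidney of the same donor (horizontal axis) for the 8 genes of smallest p, without the donor block, at 24 h (left, donors 5 to 8) and at 4 h (right, donors 1 to 4). For SLC7A7, SLC25A1 and SLC5A10 at 24 h all 4 donors lie right of 0. At 4 h all 4 lie left of 0 for SLC2A4RG, while SLC11A1 spans -3.61 to 1.25.

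Groups that do not overlap give a second count. In CO 24 h kidneys 18 of the 115 genes lay wholly above naive and 45 wholly below, where 18.7% and 20.4% of all probe sets did. Untreated 24 h kidneys had 20 above and 36 below (19.8% and 19.2% of all probe sets). CO 4 h kidneys had 13 above and 29 below (17.6% and 20.0%), and untreated 4 h kidneys 8 above and 24 below (11.5% and 15.8%). Carriers wholly below naive thus made 45 of 115 with CO and 36 of 115 untreated at 24 h, more than the shares of all probe sets, and those wholly above made no more than these. The share of named genes was not taken for these counts, so they cannot be set against it. Between the arms, CO 24 h kidneys lay above untreated ones for SLC7A7 alone (0.700% of all probe sets), and CO and untreated 4 h kidneys overlapped for all 115 (0.908% of all probe sets lay above and 0.908% below, and 0.483% lay below at 24 h). Between times, 12 genes lay wholly higher and 18 wholly lower at 24 h with CO (11.2% and 9.68% of all probe sets), and 5 and 20 untreated (7.11% and 6.14%).

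Lists of cell type markers, of partners and regulators of carriers and of other transporters were read beside the carriers. Of 11 proximal tubule markers 9 fell in CO 24 h and 10 in untreated 24 h kidneys, with median changes of -2.06 and -2.98. Their summed signal ran 2480 to 4760 in CO 24 h, 1660 to 3370 in untreated 24 h, 4630 to 10600 in CO 4 h and 6790 to 14100 in untreated 4 h kidneys, against 13700 to 15100 in naive kidneys, with none below background; their part in the falls of the carriers was not tested. Of 4 loop and distal tubule markers 2 fell in each 24 h group, of 4 endothelial markers 1 rose in each, no stromal or erythroid marker passed, and the 3 adrenal and fat markers (ADIPOQ, CYP11A1 and STAR) were below background in every group. Of 16 partners and regulators of carriers, 2 rose and 6 fell in CO 24 h kidneys, and 2 rose and 7 fell in untreated 24 h kidneys. The 2 that rose were transcription factors. ATF4, which drives amino acid carrier genes in other systems, rose by 1.34 ± 0.42 (adjusted p = 0.0491) in CO 24 h and 1.50 ± 0.42 (adjusted p = 0.0247) in untreated 24 h kidneys. CEBPB rose by 1.91 ± 0.48 (adjusted p = 0.0169) in CO 24 h and 2.47 ± 0.48 (adjusted p = 0.00311) in untreated 24 h kidneys. Both had risen at 4 h too, ATF4 by 2.50 ± 0.42 (adjusted p = 0.00473) and CEBPB by 2.76 ± 0.48 (adjusted p = 0.00517) in CO 4 h kidneys, and ATF4 by 1.99 ± 0.42 (adjusted p = 0.0359) and CEBPB by 2.71 ± 0.48 (adjusted p = 0.021) in untreated 4 h kidneys. Among those that fell were HNF4A, a proximal tubule transcription factor (-1.30 in CO 24 h and -1.71 in untreated 24 h kidneys), TMEM27, which partners apical amino acid carriers (-1.84 in CO 24 h and -2.21 in untreated 24 h kidneys), and the kinase WNK4 (-1.56 in CO 24 h and -1.54 in untreated 24 h kidneys); their part in the carriers' changes was not tested. Of 14 transporters outside the SLC set, 1 rose and 3 fell in CO 24 h and 4 fell in untreated 24 h kidneys, among them the water channel AQP1 (-2.25 in CO 24 h and -3.16 in untreated 24 h kidneys).

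The calls rest on 2 naive kidneys. In fits that left out 1 array each, 5 of the 21 CO 24 h calls passed every time (SLC15A2, SLC25A48, SLC25A6, SLC27A6 and SLC7A7) and 10 of the 32 untreated 24 h calls followed did (also SLC22A8, SLC25A1, SLC26A11, SLC38A1 and SLC46A1). None of the 18 CO 4 h calls did, since 18 ended without naive 2 and 17 without naive 1. Within date set 2 all 34 untreated 24 h calls kept their direction, with 1 array on each side, and the median of those that fell was -1.68 there and -1.70 in the fit, where 52.4% of all probe sets were lower. All 18 CO 4 h calls kept their direction within date sets 1 and 2. These arrays also gave the calls themselves, and no date set holds a CO 24 h and a naive array. With date set as a fixed block 1 carrier passed in untreated 24 h and 0 in CO 24 h kidneys, and with date set as a random block 34 and 21 did, so date set and time cannot be told apart for CO 24 h kidneys. For the 17 carriers called in untreated 24 h kidneys that have further probe sets, 22 of the 25 others had the same direction and 13 passed in it.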

How the data were processed

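The authors deposited 1 table of log2 expression values of 24123 probe sets in 18 pig kidney RNA samples; RMA is the tool named, with no version, in the submitters' processing notes, and total RNA was labelled by Affymetrix's procedure, per the labels' protocols. The log2 values were used as deposited, without a filter; 124 control probe sets were left out, leaving 23999, of which 10069 carry 1 gene symbol, 198 several (not used) and 13732 none in the platform annotation, which can be old. Arrays have no read depth; their number limits the precision.

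Groups came from sample titles and source names. A linear model with 5 groups over all 18 arrays was fitted in limma 3.58.1 (R 4.3.3, two-sided, empirical Bayes), with Benjamini-Hochberg adjustment over all 23999 probe sets and a threshold of 0.05. Background was the 0.95 quantile of 17 tag control probe sets. The fit was tested on simulated data. For the 8 donors, deviations of the CO-treated and untreated kidney correlated between -0.201 and 0.569; a shared donor number pairs them, and the donor block is given beside the comparison of CO with untreated kidneys. Alternatives were the variance model, dim probe sets, quantile normalization, array weights, date sets, fewer groups, the mean of a gene's probe sets, and leaving out arrays.

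Members, classes and lists were chosen with earlier results of these data known. Genes are named by class, up to 4 changed genes of largest change per comparison (the smallest p where none passed), the 8 of smallest p between CO and untreated kidneys, and a list of 60 renal and stress-related carriers, of which 28 were measured. SLC12A8 and SLC23A3, whose probe sets carry several symbols, are not analysed here.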

Additional observations from a re-analysis of the deposited data

Results flagged for a closer look

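Within groups of 4 arrays, 7 of 140 groups over 35 genes had 1 array far from the other 3 by Dixon's criterion, and chance gives about 1 in 20. SLC38A1 stood at 4.1 in the untreated 4 h kidney of donor 1, against 5.64 to 5.86 in the other 3, and SLC23A1 at 4.89 in the untreated 4 h kidney of donor 4, against 3.89 to 4.05. In CO 24 h kidneys SLC27A6 was 3.16 in donor 8 and 2.39 to 2.52 in the others. In untreated 24 h kidneys SLC2A1 was 8.21 in donor 8, with 6.46 to 6.67 in the others; SLC3A2 was 4.75 in donor 7, with 6.12 to 6.23 in the others; SLC7A1 was 7.12 in donor 6, with 6.4 to 6.42 in the others; and SLC9A3R2 was 6.88 in donor 5, with 5.38 to 5.58 in the others. What sets these arrays apart was not tested.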

How the results depend on the processing

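The counts of changed carriers depend on 2 naive arrays, on date set and on the weighting of arrays. With array weights the counts were 48 in CO 24 h (21 in the fit as reported), 53 in untreated 24 h (34), 32 in CO 4 h (18) and 21 in untreated 4 h kidneys (2) against naive, and 45 (25) with CO and 43 (23) untreated between 24 h and 4 h. With date set as a fixed block they were 0 in CO 24 h, 1 in untreated 24 h and 1 in untreated 4 h kidneys, and 0 between times in either arm. With arrays of date set 1 only, 0 passed in CO 4 h and 0 in untreated 4 h kidneys, and with the compared groups only 0 passed in untreated 4 h kidneys. These fits use fewer arrays or degrees of freedom. Leaving out 1 array at a time gave 7 to 25 in CO 24 h (7 without naive 1, 8 without naive 2), 11 to 36 in untreated 24 h (11 without naive 1, 13 without naive 2, 21 without donor 6), 0 to 20 in CO 4 h (0 without naive 2, 1 without naive 1, 6 without donor 1, 10 without donor 3) and 0 to 14 in untreated 4 h kidneys (14 without donor 1; 0 without either naive array, donor 2 or donor 3; 1 without donor 4). Between times it gave 14 to 30 with CO (14 without the 4 h kidney of donor 1 or the 24 h kidney of donor 7) and 13 to 28 untreated (13 without the 4 h kidney of donor 4 or the 24 h kidney of donor 6, 14 without the 24 h kidney of donor 7). Between CO-treated and untreated kidneys every setting gave 0, the replicate block by donor included (0 at 24 h, 0 at 4 h and 0 for the difference of the effect), though it moved the carriers with an unadjusted p under 0.05 to 7 at 24 h, 4 at 4 h and 14 for that difference (1, 2 and 7 without it). Leaving out both arrays that stand apart, chosen after seeing the data, gave 14 in untreated 4 h kidneys. The direction turned in 3 of 2531 gene results: SLC8A1 between CO 24 h and 4 h with date set as a fixed block (0.0377), and SLC10A1, which is below background and was not called, in untreated 4 h kidneys with date set 1 only (0.17) and without naive 2 (0.12, with -0.488 without naive 1); of the rest, 2011 kept direction and side of the threshold, 493 no longer passed and 24 newly passed. The causes were not tested.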
